A study of Mus musculus with 14 samples.

Results

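The 7 GABA-A receptor subunit genes Gabra2, Gabra3, Gabra4, Gabra5, Gabrb1, Gabrb2 and Gabrd were followed through a hippocampal RNA-seq experiment on hyperoxia and the loss of gasdermin D (GSDMD), the pore-forming protein of pyroptotic cell death. They were chosen by their symbols from the 36118 genes of the count table, with earlier results of these data known. All 7 were among the 16637 genes that passed the filter on low counts. The pups were C57/BL6 mice, WT or homozygous GSDMD-KO littermates from matings of heterozygotes, and each group breathed room air or 85% O2 from postnatal day 1 to 14 before the hippocampus was taken on postnatal day 15. There were 4 WT mice in room air (WT-RA), 4 WT mice under hyperoxia (WT-O2), 3 KO mice in room air (KO-RA) and 3 KO mice under hyperoxia (KO-O2), with 1 polyA RNA library per mouse. The knockout is global and carries a small deletion within exon 5 of Gsdmd, in a line that the study's methods give as C57BL/6N. One mouse, GSD408, is hyperoxia by its title and room air by its treatment field, and it was placed by its title in WT-O2.

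GABA-A receptors are chloride channels built from 5 subunits around a pore, and they carry most of the fast inhibition in the brain. The α subunit sets much of a receptor's pharmacology and its place at or away from the synapse. Receptors with α2 sit largely at synapses, receptors with α5 lie mainly outside them on hippocampal pyramidal cells, and α4 pairs with δ in extrasynaptic receptors that respond to ambient GABA in the dentate gyrus, thalamus and striatum. The α3 subunit is widespread in the immature forebrain and recedes as the brain matures, and the β subunits are needed for assembly and contribute to the GABA binding site.

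Gabra2, Gabra4 and Gabrb1 are neighbours on chromosome 5, where Cox7b2 was the only other coding gene between the first and the last of them in RefSeq. Gabra5 lies on chromosome 7, Gabrb2 on chromosome 11, Gabrd on chromosome 4 and Gabra3 on chromosome X. The RefSeq table of start sites (build GRCm38.p6, not the GRCm39 build of the counts) matched 6 of the 7 symbols with 10 start sites, and Gabrd had no match. Letters just upstream of 3 start sites are shown, from the members' highest CpG count (18) to their lowest (0). In room air Gabra2 and Gabra5 were higher in KO mice and Gabra3 was lower. Gabra4, also lower there, is not shown, and its window held 12 CpG. Each run holds the 250 bases before the start site, 5′ to 3′ on the gene's strand, which is the minus strand for all 3, and the capitals mark CpG dinucleotides.
Gabra2, chr5:71095850-71096099: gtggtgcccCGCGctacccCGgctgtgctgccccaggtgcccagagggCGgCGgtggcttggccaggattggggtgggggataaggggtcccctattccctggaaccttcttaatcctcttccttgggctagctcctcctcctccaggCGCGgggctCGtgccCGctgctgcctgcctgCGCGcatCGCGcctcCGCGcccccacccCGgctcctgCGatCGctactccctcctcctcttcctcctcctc
Gabra5, chr7:57510060-57510309: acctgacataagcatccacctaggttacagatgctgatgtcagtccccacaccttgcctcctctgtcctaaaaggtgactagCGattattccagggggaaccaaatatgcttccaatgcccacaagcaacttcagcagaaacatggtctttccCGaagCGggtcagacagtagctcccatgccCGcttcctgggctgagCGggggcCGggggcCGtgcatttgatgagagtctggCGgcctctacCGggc
Gabra3, chrX:72656920-72657169: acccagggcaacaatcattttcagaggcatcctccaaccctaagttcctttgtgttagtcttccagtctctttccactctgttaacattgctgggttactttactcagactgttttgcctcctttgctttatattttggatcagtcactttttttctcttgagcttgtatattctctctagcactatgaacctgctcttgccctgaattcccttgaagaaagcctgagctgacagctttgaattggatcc
The Gabra2 window held 18 CpG, the Gabra5 window 9 and both Gabra3 windows 0, against a median of 6 over 32851 promoter windows. The Gabra4 window held 12 CpG, the 2 Gabrb1 windows 18 and 6, and the 3 Gabrb2 windows 8, 8 and 4. Motifs of 3 transcription factor families were searched on both strands over 300 bases, 250 before to 50 after each start. The Egr site (GCGTGGGCG) was in 0.612% of all promoters, the cAMP response element (TGACGTCA) in 1.79% and the E-box (CACGTG) in 7.15%, and none of the 3 was in any of the 10 windows of the members. The Gabra4 start and 1 of the 2 Gabrb1 starts lay 387 bases apart on opposite strands, with the Gabrb1 start inside Gabra4, and the annotated exons of the 2 genes share 46 bases. Whether the counting used strand is not given in the sources used here, and how it divided reads from those shared bases was not tested. The estimated counts of Gabra4 and Gabrb1 were whole numbers in every library, to the digits kept.

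The libraries held 27272270 to 28257496 estimated counts each. Gsdmd itself was low in every library, with 41 to 63 estimated counts in the 8 WT libraries and 22 to 42 in the 6 KO libraries. A gene-level count that includes exons outside the deletion is a weak check of the genotype labels. WT mice are numbered GSD398 to GSD408 and KO mice GSD489 to GSD496, so genotype and mouse number range cannot be told apart. The tissue label was checked with marker genes of the hippocampus and of its neighbours, summed in CPM, counts scaled to a common library size. The 10 hippocampal markers summed to 611 to 970 CPM in the WT libraries and 1244 to 1555 in the KO libraries. The 10 striatal markers summed to 498 to 1032 CPM in WT and 247 to 345 in KO, the 8 deep cortical markers to 179 to 376 and 137 to 163, and the 6 oligodendrocyte markers to 4811 to 19191 and 3270 to 5758. Thalamic markers summed to 194 to 1033 CPM in WT and 231 to 255 in KO, and were highest in mice GSD398 (1033 CPM) and GSD408 (784 CPM). Shox2, a thalamic transcription factor, ran from 0.177 to 27.0 CPM in WT-RA and from 2.9 to 21.5 CPM in WT-O2. It reached no more than 0.179 CPM in any KO library. The thalamic markers did not all differ this way, and Calb2 averaged 61.5 CPM in WT-RA and 61.4 CPM in KO-RA. Markers of all neurons did not separate the genotypes (4536 to 5609 CPM in WT and 4848 to 5473 in KO). In these whole-tissue libraries, fewer cells of a type and less RNA per cell cannot be told apart.

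Differences are given as log2 fold changes with their standard errors from edgeR's quasi-likelihood test, and a gene was called where it changed by at least 1.25-fold with p below 0.05 and a Benjamini-Hochberg adjusted p (q) below 0.1 over all 16637 genes. An exact two-sided permutation test of each member's log2 CPM accompanies the calls. Its smallest possible p is 0.0286 for 4 mice against 4, 0.0571 for 3 against 4 and 0.1 for 3 against 3. Every genotype call of a member had an exact permutation p of 0.0571, except Gabra3 in room air at 0.171. No genotype call could therefore fall below 0.05 by this test.

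Gabra2 was the member with the widest range in WT mice. It was at 107.5, 167.3, 84.4 and 119.8 CPM in WT-RA and at 224.4, 212.2, 201.1 and 175.2 CPM in WT-O2. Every WT-O2 mouse lay above every WT-RA mouse, though the lowest of the former (GSD408) was close to the highest of the latter. The KO libraries held 277.3, 215.3 and 241.2 CPM in KO-RA and 220.3, 249.5 and 252.6 CPM in KO-O2, so both KO groups lay above all WT-RA mice and overlapped with WT-O2 at its upper end. WT mice under hyperoxia had more Gabra2 than WT mice in room air, by 0.76 ± 0.16 log2 units (standard error, q = 0.0642, exact permutation p = 0.0286), and no other member was called in that comparison. The call was lost with mouse GSD408 counted as room air (0.70 ± 0.18, q = 0.207) and without WT-O2 mouse GSD404 (q = 0.158), GSD405 (q = 0.211) or GSD406 (q = 0.128), while the difference stayed between 0.63 and 0.97 under all alternatives. In room air, Gabra2 was 1.03 ± 0.17 log2 units higher in KO mice than in WT mice (q = 0.00159). Gabra2 expression is known to differ between C57BL/6 substrains, and the labels give no substrain for each mouse, so its part in the genotype difference and in the spread among WT mice was not tested. Under hyperoxia the difference between genotypes was 0.25 ± 0.17 and was not called (q = 0.485).

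Gabra5, the subunit of the extrasynaptic receptors of pyramidal cells, was the most abundant member per length and the one that separated the genotypes most cleanly. It was at 186.0, 197.8, 215.7 and 178.2 CPM in WT-RA, and at 242.9, 231.1, 226.7 and 189.7 CPM in WT-O2. It was at 362.9, 307.3 and 300.1 CPM in KO-RA, and at 303.1, 335.2 and 347.1 CPM in KO-O2. The lowest KO mouse exceeded the highest WT mouse, with or without hyperoxia. Gabra5 was higher in KO by 0.73 ± 0.09 log2 units in room air (q = 0.000324) and by 0.56 ± 0.09 under hyperoxia (q = 0.00319). In WT mice the hyperoxia difference was 0.20 ± 0.09 and did not pass (q = 0.385).

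Gabra3, which encodes an α subunit widespread in the immature forebrain, was at 66.7, 102.1, 110.7 and 127.3 CPM in WT-RA and at 109.4, 117.2, 116.1 and 97.3 CPM in WT-O2. It was at 63.2, 78.7 and 74.3 CPM in KO-RA and at 65.4, 67.5 and 50.7 CPM in KO-O2. The KO mice lay below 7 of the 8 WT mice, and the exception was GSD398. That mouse had the highest thalamic, striatal and oligodendrocyte sums of WT-RA. Its deep cortical sum (179 CPM) was the lowest among WT mice. Under hyperoxia Gabra3 was lower in KO (log2 fold change -0.85 ± 0.17, q = 0.00835) with no overlap between the groups. In room air the groups overlapped, and the difference of -0.50 ± 0.17 was called by edgeR (q = 0.0771) but had an exact permutation p of 0.171. That call was lost in 9 of 25 alternatives, among them leaving out any 1 KO-RA mouse.

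Gabra4, the α partner of δ, was at 119.9, 89.6, 81.9 and 86.7 CPM in WT-RA and at 76.8, 69.4, 84.2 and 98.0 CPM in WT-O2. It was at 71.4, 64.3 and 69.7 CPM in KO-RA and at 72.1, 66.5 and 72.4 CPM in KO-O2. The highest value of each WT group belonged to GSD398 in WT-RA and GSD408 in WT-O2. These 2 mice also had the highest sums of their groups for thalamic, striatal (949 and 1032 CPM) and oligodendrocyte markers (19191 and 12785 CPM). In room air Gabra4 was lower in KO (log2 fold change -0.47 ± 0.13, q = 0.0296). It was also lower with both of those mice left out, an alternative chosen after seeing the data (-0.32 ± 0.07, q = 0.0126). That smaller difference is close to the limit of 1.25-fold. GSD408 is in neither group of this comparison and bears on its q through the spread shared by all groups. The call was lost without KO-RA mouse GSD490. The difference under hyperoxia, -0.22 ± 0.13, was not called (q = 0.371) and its groups overlapped.

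Gabrb1 and Gabrb2 encode β subunits. Gabrb1 was at 189.8, 189.2, 171.1 and 193.7 CPM in WT-RA and at 250.6, 228.6, 224.2 and 202.1 CPM in WT-O2. The KO-RA mice had 257.4, 214.4 and 233.0 CPM and the KO-O2 mice 217.5, 260.2 and 263.4 CPM. All mice of the other 3 groups lay above all WT-RA mice. Gabrb1 was higher in KO by 0.34 ± 0.09 log2 units in room air (q = 0.0237), a call lost without WT-RA mouse GSD400 or KO-RA mouse GSD489 and with GSD408 as room air, and its WT hyperoxia difference of 0.28 ± 0.08 did not pass (q = 0.162). Gabrb2 was the steadiest member, at 92.2, 94.6, 101.6 and 97.8 CPM in WT-RA and 96.1, 90.2, 96.9 and 95.2 CPM in WT-O2. The KO-RA mice had 86.8, 83.5 and 90.4 CPM of it and the KO-O2 mice 78.1, 80.8 and 78.9 CPM. Its KO mice all lay below the WT mice of the same exposure. The differences of -0.15 ± 0.05 in room air (q = 0.08) and -0.25 ± 0.05 under hyperoxia (q = 0.00892) were smaller than 1.25-fold and so were not called.

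Gabrd, which encodes the δ subunit of extrasynaptic receptors, had the largest difference of the 7 between genotypes. It was at 35.2, 24.8, 32.3 and 24.6 CPM in WT-RA and at 15.9, 17.1, 21.2 and 31.6 CPM in WT-O2. It was at 10.5, 10.7 and 13.6 CPM in KO-RA and at 12.3, 9.5 and 10.5 CPM in KO-O2. No KO mouse reached the lowest WT mouse, and 3 of the 4 WT-O2 mice lay below all WT-RA mice, the exception being GSD408. Gabrd was lower in KO in room air (log2 fold change -1.334 ± 0.22, q = 0.00152) and under hyperoxia (-0.996 ± 0.22, q = 0.0129). In WT mice its hyperoxia difference was -0.45 ± 0.19 and was not called (q = 0.355), but without GSD408 it was called (-0.69 ± 0.15, q = 0.0914).

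**Figure D1:**
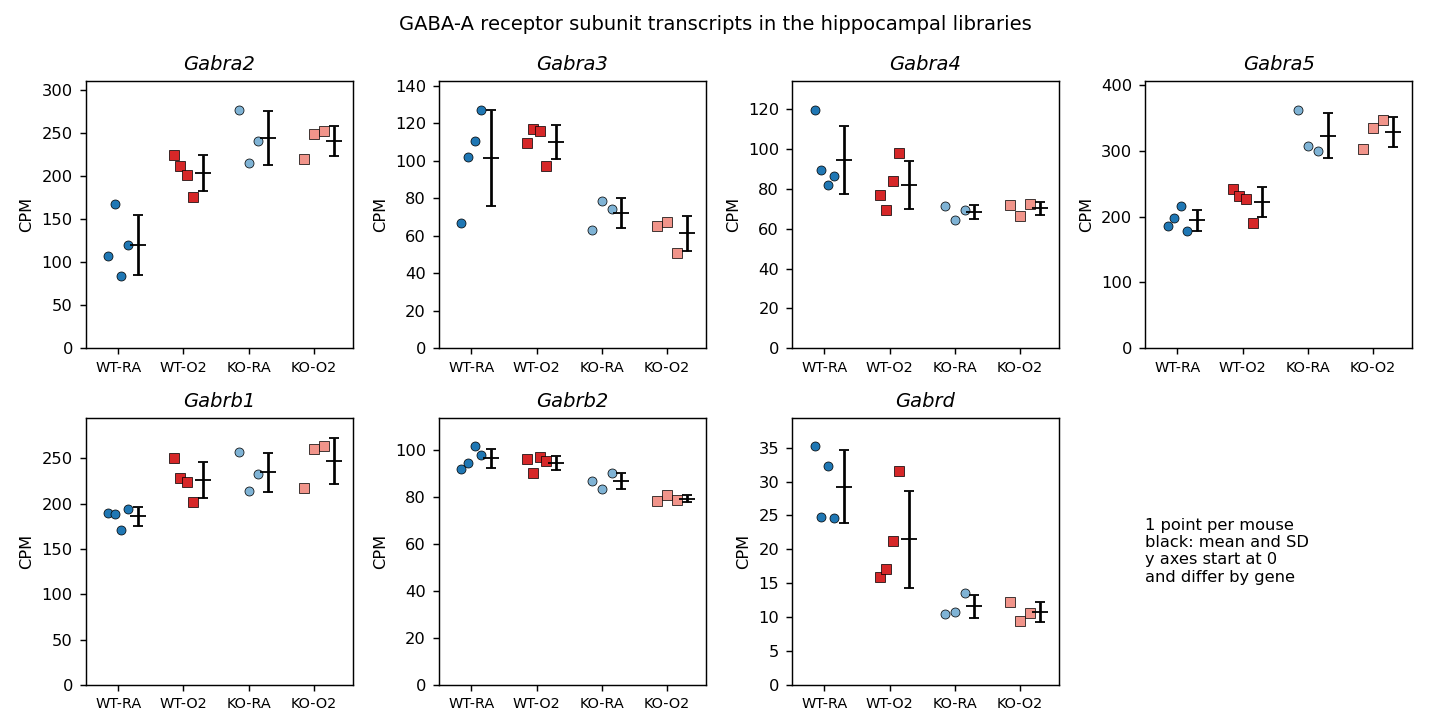
CPM of the 7 subunit genes on the y axis of each panel, by group on the x axis, with 1 point per mouse (4 WT-RA, 4 WT-O2, 3 KO-RA, 3 KO-O2) and the mean and SD in black beside the points. Gabra5 separates KO (300.1 to 362.9 CPM) from WT (178.2 to 242.9 CPM), Gabrd does so in the opposite direction, and Gabra2 is lowest in WT-RA.

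Set side by side, the comparisons differed in how many members they called. The members were chosen with earlier results of these data known. Their counts beside the shares of all genes describe them and test nothing. Hyperoxia in WT mice gave 1 call among the 7 members, against 0.643% of all genes tested, and the libraries of the groups did not overlap for 2 of 7, Gabra2 and Gabrb1, against 5.99%. In KO-O2 vs KO-RA, 0 of 7 was called by edgeR and 0 by DESeq2, against 0.012% by edgeR, and 1 member had p below 0.05, Gabrb2 at -0.13 ± 0.06 (q = 0.997). Gabrb2 was also the only member whose groups did not overlap there, against 11.8% of all genes. The 7 differences in KO mice ran from -0.24 for Gabra3 to 0.07 for Gabrb1. In KO-RA vs WT-RA, 6 of 7 were called, against 10.4% of all genes: Gabra2, Gabra5 and Gabrb1 were higher (3.75% of all genes were called higher) and Gabra3, Gabra4 and Gabrd were lower (6.7% were called lower). The groups did not overlap for 6 of 7, against 19.6%. In KO-O2 vs WT-O2, 3 of 7 were called, against 6.86%: Gabra5 was higher (2.51% of all genes) and Gabra3 and Gabrd were lower (4.35%). The groups did not overlap for 4 of 7, against 19%.

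The median difference of the members was -0.15 in KO-RA vs WT-RA and -0.22 in KO-O2 vs WT-O2, beside -0.01 over all genes in both, since members moved both ways. The median size of the difference without its sign was 0.50 and 0.25 for the members, beside 0.14 and 0.12 over all genes. These sizes, too, belong to members chosen with earlier results known. WT-RA is the reference of both the WT hyperoxia comparison and the room air genotype comparison, so Gabra2 counted as higher in both shares its 4 control mice. The interaction of genotype and exposure called 0 members and 0% of all genes by edgeR and 0 by DESeq2, with 1 member (Gabra2) and 673 genes at an unadjusted p below 0.05. The Gabra2 interaction was -0.79 ± 0.24 (adjusted p = 1.0 by edgeR), so its hyperoxia difference in WT was not shown to differ from that in KO.

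**Figure D2:**
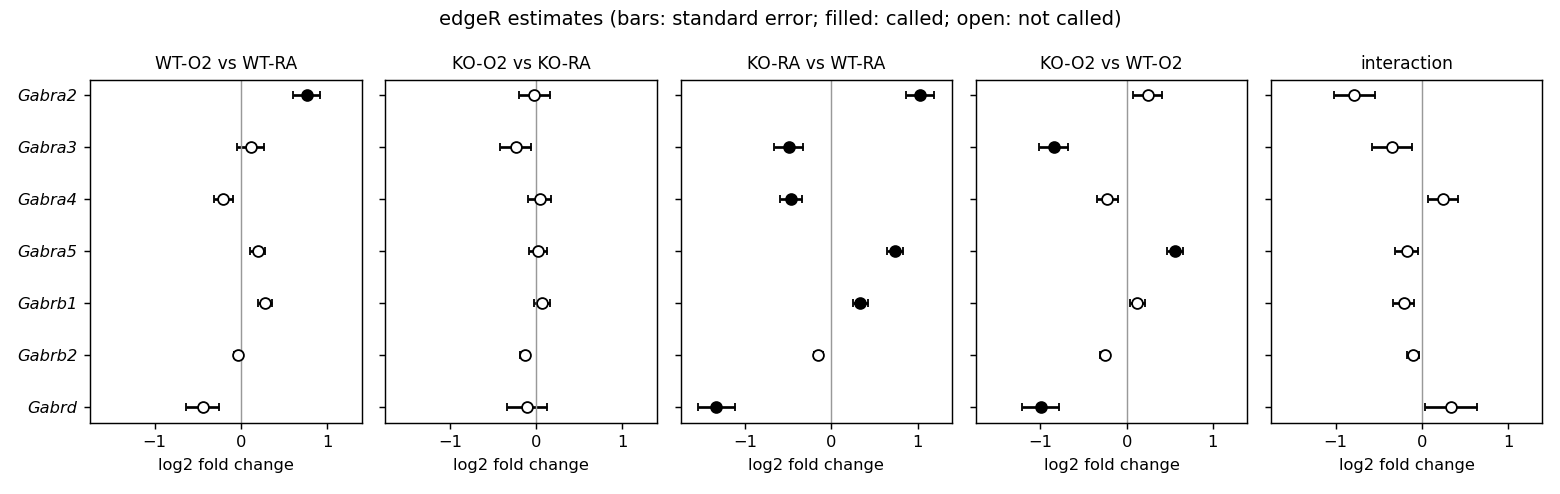
Log2 fold changes of the 7 subunit genes on the x axis in the 4 comparisons of groups and the interaction, with bars of 1 standard error, filled points for calls and open points for members not called. All points of KO-O2 vs KO-RA are open and lie between -0.24 and 0.07, and 6 of the 7 points of KO-RA vs WT-RA are filled.

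The genotype differences stood beside differences in the markers of neighbouring regions. In KO-RA vs WT-RA, 9 of 10 hippocampal markers were called higher, and 6 of 10 thalamic, 9 of 10 striatal, 6 of 8 deep cortical and 6 of 6 oligodendrocyte markers were called lower. In KO-O2 vs WT-O2 the counts were 7 higher for hippocampal markers, and 6, 9, 5 and 4 lower for the others in the same order. Of all genes, 10.4% were called in room air and 6.86% under hyperoxia. The marker lists were chosen with earlier results of these data known, so their counts are a description and not a test. In room air 2 of 8 interneuron markers were called lower and 2 of 6 astrocyte markers higher in KO, with 0 of 6 markers of all neurons and 0 of 6 of microglia. Genotype and these marker differences cannot be told apart in this design. With thalamic and striatal marker scores as covariates, 0 of 7 members were called in either genotype comparison, and 3 and 1 genes in all. The scores themselves differ by genotype (R squared of genotype 0.918 for the striatal and 0.484 for the thalamic score), and with them standard errors widened from 0.17 to 0.46 for Gabra2 in room air.

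Under those covariates the room air difference of Gabra2 went from 1.03 to 0.63 ± 0.46 and that of Gabra4 from -0.47 to -0.15 ± 0.19. Gabrd went from -1.334 to -0.05 ± 0.43 in room air and from -0.996 to 0.28 ± 0.41 under hyperoxia. Gabra5 went from 0.73 to 0.24 ± 0.21 and from 0.56 to 0.09 ± 0.20, and Gabrb1 in room air from 0.34 to -0.01 ± 0.23. Gabra3 lay farther from 0 than without covariates, at -0.69 ± 0.36 in room air and -1.11 ± 0.34 under hyperoxia, and Gabrb2 was at -0.15 ± 0.14 and -0.27 ± 0.13. The lowest q among them was 0.57 by edgeR. The hyperoxia call of Gabra2 in WT mice held with the covariates.

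**Figure D3:**
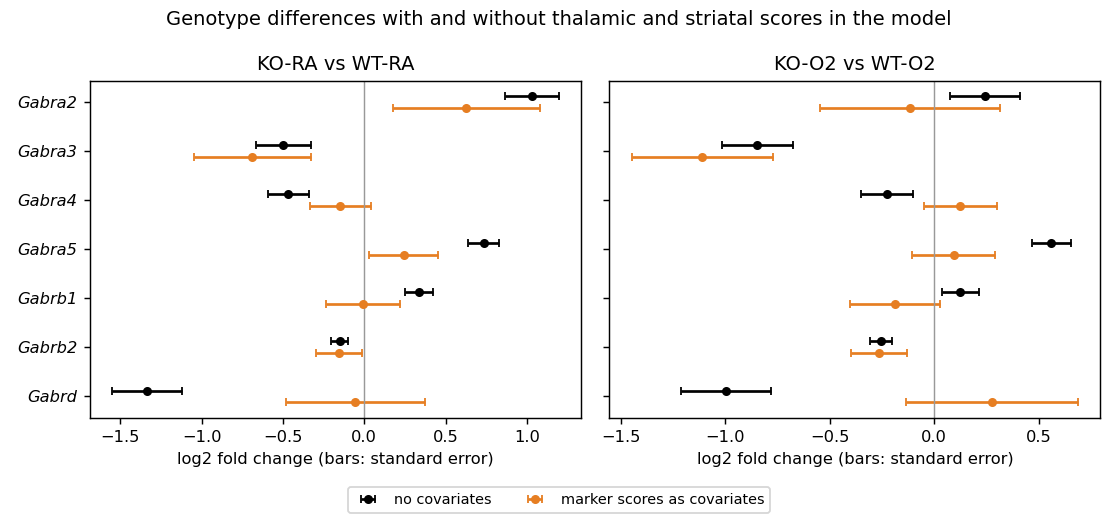
Log2 fold changes between genotypes on the x axis, in room air (left) and under hyperoxia (right), without covariates in black and with thalamic and striatal marker scores as covariates in orange, with bars of 1 standard error. In orange, Gabrd moves from -1.334 to -0.05 in room air and from -0.996 to 0.28 under hyperoxia and Gabra3 lies farther from 0 than in black, with wider bars throughout.

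Within groups, too, several members followed regional markers from mouse to mouse. These are descriptions over 14 libraries with group means removed, and no p is given. Gabra4 went with the thalamic sum (Pearson r = 0.906, Spearman rho = 0.749), and over the 8 WT libraries r was 0.94 and rho 0.952. It also went against the deep cortical sum (r = -0.798, rho = -0.815) and with the astrocyte (r = 0.645, rho = 0.56) and oligodendrocyte sums (r = 0.61, rho = 0.437). Gabra3 went with the deep cortical sum (r = 0.838, rho = 0.859) and against the thalamic sum (r = -0.723, rho = -0.512). Gabra5 went against the oligodendrocyte sum (r = -0.885, rho = -0.846) and with the neuron sum (r = 0.733, rho = 0.662). It went less so against the striatal sum (r = -0.664, rho = -0.525) and with the hippocampal sum (r = 0.643, rho = 0.705, but 0.477 and 0.262 over the 8 WT libraries). Gabrd went with the striatal sum (r = 0.693, rho = 0.508), the oligodendrocyte sum (r = 0.589, rho = 0.587) and the thalamic sum (r = 0.491, rho = 0.582). Gabra2 had its largest r with the hippocampal sum (r = 0.429, rho = 0.613), and its rho with the oligodendrocyte sum was -0.495 (r = -0.17). The part of tissue composition in the differences above was not tested. The covariate scores themselves differ by genotype, so the fit with them cannot separate composition from genotype.

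**Figure D4:**
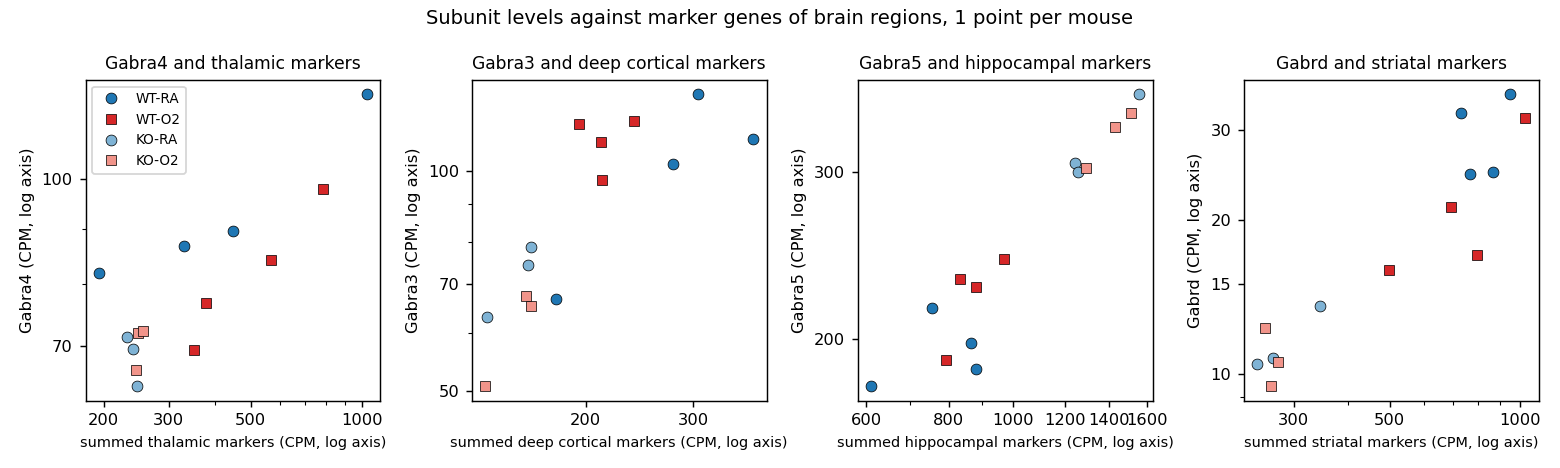
CPM of a subunit gene on the y axis against the summed CPM of a list of regional markers on the x axis, both on log axes, with 1 point per mouse coloured by group. Gabra4 climbs with the thalamic markers to its highest value in mouse GSD398 (1033 CPM of markers), and KO mice sit at the low end of the striatal markers for Gabrd and the high end of the hippocampal markers for Gabra5.

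Among the members themselves, with group means removed, Gabra2 and Gabrb1 went together (r = 0.654, rho = 0.789), as did the partners Gabra4 and Gabrd (r = 0.701, rho = 0.635). Gabra3 and Gabra4 went opposite ways (r = -0.796, rho = -0.754). The genes of at least 1 CPM most like each member were ranked by the same r. They were Wdr5b for Gabra2 (r = 0.934, rho = 0.802), Rasal1 for Gabra3 (r = 0.94, rho = 0.921), and Adarb1 and Rora for Gabra4 (r = 0.977 and 0.975, rho = 0.956 and 0.925). For the rest they were Gnaq for Gabra5 (r = 0.958, rho = 0.952), Dmxl1 for Gabrb1 (r = 0.942, rho = 0.938), Zfp7 for Gabrb2 (r = 0.872, rho = 0.886) and Tbc1d7 for Gabrd (r = 0.932, rho = 0.943). Each r is a maximum over many genes in 14 libraries and was not tested. Rora is itself 1 of the 10 thalamic markers.

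Ratios between subunits within a library do not depend on how the library is scaled, and they are described here without a test. They are ratios of CPM not divided by length, so they compare libraries and not the levels of the 2 genes. The log2 ratio of Gabrd to Gabra4, the extrasynaptic pair, averaged -1.69 in WT-RA and -1.97 in WT-O2 mice, against -2.56 and -2.71 in the KO mice on room air and hyperoxia. It ran from -2.26 to -1.34 over the WT mice and from -2.80 to -2.36 over the KO mice, without overlap. The Gabrd transcript was thus lower in KO also relative to that of Gabra4 in whole-tissue RNA. The part of tissue composition in this ratio was not tested. The ratio of Gabra4 to Gabra2 averaged -0.31 in WT-RA and -1.31 in WT-O2 mice, against -1.83 and -1.77 in the KO mice on room air and hyperoxia. It was widest apart among the WT-RA mice, from -0.90 in GSD399 to 0.158 in GSD398. The ratio of Gabra5 to Gabra2 averaged 0.74 in WT-RA with a spread from 0.24 to 1.35, and 0.13 in WT-O2 with a spread from 0.11 to 0.17. It averaged 0.41 in KO-RA and 0.45 in KO-O2. The ratio of Gabrb2 to Gabrb1 averaged -0.94 in WT-RA and -1.26 in WT-O2 mice, against -1.43 and -1.63 in the KO mice on room air and hyperoxia, and only the 2 KO groups overlapped among the pairs compared.

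**Figure D5:**
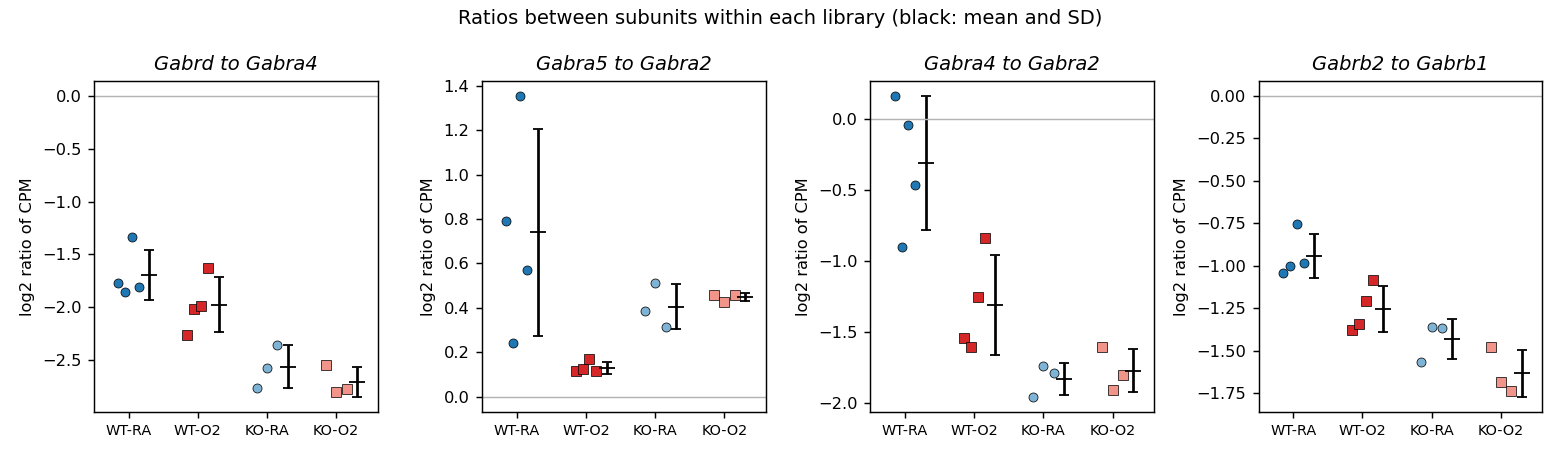
Log2 ratios of CPM between 2 subunits on the y axis, by group on the x axis, with 1 point per mouse and the mean and SD in black. Gabrd to Gabra4 is lower in every KO mouse than in every WT mouse, and Gabra5 to Gabra2 spreads from 0.24 to 1.35 in WT-RA but only from 0.11 to 0.17 in WT-O2.

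Levels of different members can be compared only per length of transcript. Per kilobase of annotated exon, Gabra5 was highest in every group, from 65.4 ± 5.48 CPM per kb (SD, n = 4) in WT-RA to 110.0 ± 7.65 (SD, n = 3) in KO-O2. Gabrd was lowest in every group, from 10.2 ± 1.87 (n = 4) in WT-RA to 3.74 ± 0.49 (n = 3) in KO-O2. In WT-RA the order below Gabra5 was Gabra3 at 25.9, Gabra2 at 15.7, Gabra4 at 15.5, Gabrb2 at 15.2 and Gabrb1 at 13.4 CPM per kb, and the ranges of Gabra2, Gabra4 and Gabrb2 overlapped, while Gabrb2 and Gabra4 each lay above Gabrb1 in each of the 4 mice. In KO-O2 the order was Gabra2 at 31.5, Gabrb1 at 17.9, Gabra3 at 15.6, Gabrb2 at 12.5 and Gabra4 at 11.6 CPM per kb. With the length of the longest coding transcript, a choice made after seeing the data, Gabra5 stayed highest in all groups, Gabrb1 was lowest in WT-RA at 13.5 CPM per kb, and Gabrb2 stood at 24.2.

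Other genes of the GABA system were counted in lists chosen with earlier results of these data known. Their counts stand beside the 10.4% and 6.86% of all genes called between genotypes in room air and under hyperoxia. Of 12 other GABA-A subunit genes listed, 8 passed the filter, and Gabra6, Gabrp, Gabrr2 and Gabrr3 did not, with at most 11 estimated counts in any library. None of the 8 was called in KO-RA vs WT-RA, and 2 were lower in KO-O2 vs WT-O2. These were Gabrq, the θ subunit gene and neighbour of Gabra3 on chromosome X, at 9.64 ± 2.18 CPM (SD, n = 4) in WT-O2 and 1.72 ± 0.47 CPM (SD, n = 3) in KO-O2, and Gabrg1, a γ subunit gene and neighbour of Gabra2, at 28.7 ± 1.55 and 19.1 ± 0.54 CPM. Their log2 fold changes were -2.48 ± 0.47 (q = 0.00609) and -0.59 ± 0.15 (q = 0.0299). Of 20 anchoring and trafficking genes, Mdga1, an adhesion protein that holds back inhibitory synapse formation, was higher in KO-RA (0.41 ± 0.12, q = 0.0387) and Plcl1, which takes part in receptor trafficking, was lower (-0.37 ± 0.11, q = 0.0415). Under hyperoxia Hap1, a trafficking adaptor, was lower in KO (-1.03 ± 0.30, q = 0.0619).

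Of 8 genes of GABA synthesis, packaging, uptake and breakdown, 2 were called lower in KO in room air and 3 under hyperoxia, and none was called higher. Slc32a1, the vesicular GABA transporter, averaged 112 ± 19.2 CPM (SD, n = 4) in WT-RA and 75.3 ± 1.93 (n = 3) in KO-RA, and was lower in KO in room air (-0.58 ± 0.12, q = 0.00861) and under hyperoxia (-0.65 ± 0.12, q = 0.00625). Gad2, which makes GABA from glutamate, was lower at both exposures (-0.42 ± 0.13, q = 0.0471 in room air and -0.49 ± 0.13, q = 0.0334 under hyperoxia). Abat, which breaks GABA down, was lower under hyperoxia (-0.35 ± 0.10, q = 0.0489). Striatal projection neurons are GABAergic too, the striatal sums given above were lower in the same KO libraries, and their part in these calls was not tested. Slc12a2, which loads chloride into immature neurons, was lower in KO-RA (-0.59 ± 0.20, q = 0.0811), and its counterpart Slc12a5, which extrudes chloride, was below the fold limit and so not called between genotypes (-0.25 ± 0.07, q = 0.0308 in room air and -0.22 ± 0.07, q = 0.0687 under hyperoxia). Of 5 GABA-B receptor genes, the auxiliary subunit gene Kctd12 was higher in KO-RA (0.43 ± 0.11, q = 0.0224) and Kctd8 was lower in KO-O2 (-0.57 ± 0.13, q = 0.0163). None of the genes in these GABA lists was called in either hyperoxia comparison or in the interaction.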

How the data were processed

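PolyA RNA from the hippocampus of 14 mice was sequenced as paired-end libraries. The authors quantified reads with kallisto against mouse build GRCm39 and summarized them to genes with tximport, and the deposited values are estimated counts per gene with no normalization (versions and any length scaling are not given in the sources used here). In the files, 41.0% to 43.2% of values per library were not whole, so the estimated counts were rounded before testing. Symbols were matched by Ensembl ID for 35825 of 36118 genes with GENCODE M21.

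The counts were analysed in R 4.3.3 with edgeR 4.0.16 (TMM scaling, filterByExpr, glmQLFit and glmQLFTest, 1 coefficient per group over all 14 libraries). A call needed a fold change of 1.25, p below 0.05 and q below 0.1, the thresholds of the study's methods. The study used DESeq2, which was run as an alternative (version 1.42.0). CPM use TMM library sizes, and log2 CPM a prior count of 2. The model code was tested on simulated counts. Replicates are separate mice, and replicate numbers follow accession order and pair nothing.

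The members and gene lists were chosen with earlier results of these data known. All members were named. From each other list, up to 3 called genes with the largest change per comparison were named, and where none was called the 2 with the highest mean CPM, though not every gene that this rule picks is reported here. Genes like a member were ranked by Pearson's r of log2 CPM with group means removed, and the first of each 3 is given, with the second for Gabra4. Promoter sequences are from RefSeq (GRCm38.p6), as no GRCm39 genome was used here, and genes were matched by symbol.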

Additional observations from a re-analysis of the deposited data

How the results depend on the processing

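Member fold changes and counts of calls were recomputed under 25 alternatives (24 for the interaction) with other normalizations, filters, thresholds, tools, sample sets and covariates, and 826 of 868 member fold changes kept their direction and side of the threshold. Marker correlations and the calls of other GABA genes were not recomputed. In WT-O2 vs WT-RA, 0 members were called with only the groups compared, with GSD408 as room air or at a q threshold of 0.05, and 2 with GSD398 and GSD408 both left out. Leaving out 1 mouse gave 0 to 2. In KO-RA vs WT-RA and KO-O2 vs WT-O2, 0 were called with thalamic and striatal scores as covariates. Leaving out 1 mouse gave 4 to 6 and 3. Genes called in all moved from 107 to between 6 and 306 in WT-O2 vs WT-RA (13 to 272 without 1 mouse), from 2 to between 0 and 13 in KO-O2 vs KO-RA (1 to 4), from 1738 to between 3 and 2464 in KO-RA vs WT-RA (1076 to 1929) and from 1142 to between 1 and 1524 in KO-O2 vs WT-O2 (675 to 1335). Differences changed sign without 1 mouse, over which they ran from -0.039 to 0.238 for Gabra3 in WT-O2 vs WT-RA, and in KO-O2 vs KO-RA from -0.107 to 0.077 for Gabra2, from -0.005 to 0.077 for Gabra4, from -0.027 to 0.113 for Gabra5 and from -0.214 to 0.022 for Gabrd. With the covariates they did so for Gabrb1 in KO-RA vs WT-RA (-0.006) and in KO-O2 vs WT-O2 for Gabra2 (-0.12), Gabra4 (0.13), Gabrb1 (-0.19) and Gabrd (0.28). The cause was not tested. With 3 or 4 mice per group, the precision of every fold change rests on the spread between few mice, and intervals were not computed for single libraries.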
